A study of Mus musculus with 12 samples.

Results

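Erf, Etv3, Etv4 and Etv5 are relatives of Ets1 and Ets2 in the ETS family of transcription factors. Their transcripts were read here in mouse aortic cells labelled endothelial, in groups labelled as carrying or lacking Ets1 and Ets2. They are 4 of the 11015 genes that the platform annotation names alone at some probe set. All probe sets that name exactly 1 of these 4 symbols were used, which gave 8 of the 20523 in the table: 1 for Erf, 3 for Etv3, 1 for Etv4 and 3 for Etv5. Cells came from aortas of mice aged 4 weeks, were grown in culture, and were profiled on Affymetrix arrays in 4 groups of 3 columns. WT cells are Ets1+/+; Ets2+/+ and received a lentivirus that expresses egfp. Ets1KO cells are Ets1-/- with Ets2fl/fl alleles and received the same egfp virus, so their Ets2 alleles are floxed but met no Cre. Ets2KO cells are Ets1+/+ with Ets2fl/fl alleles, and the group labelled DKO is Ets1-/- with Ets2fl/fl alleles. Both of these received a lentivirus that carries egfp and Cre, so Cre and loss of Ets2 cannot be told apart. Every group therefore carries a lentivirus with egfp, and WT alone has no floxed allele.

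ETS factors share a DNA-binding domain that recognises a GGAA core, and many promoters and enhancers active in endothelium hold such cores. Erf and Etv3 are repressors of the family, and ERK phosphorylation moves Erf out of the nucleus. Etv4 and Etv5 belong to the PEA3 group of activators, whose transcripts are induced by receptor tyrosine kinases, FGF receptors in particular, acting through ERK. The values are log2 expression per probe set. They are given as deposited and also relative to array medians, that is, after each array's median was subtracted, because the columns labelled DKO have medians of 8.28 to 8.30 and the 9 others 9.05 to 9.15. The level above which the brightest percent of probe sets lies is lower too, at 13.49 to 13.59 against 13.90 to 13.96. Whether the DKO arrays were normalised apart from the others is not stated in the labels, and such a step and the DKO genotype cannot be told apart in any difference from DKO, on either scale. A difference is called at a limma adjusted p below 0.05, adjusted over all 20523 probe sets of a comparison.

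Before the members were compared, libraries and labels were checked. The third column labelled DKO is, within 1e-05, the average of the other 2 in 20521 of 20523 probe sets, including all 8 member probe sets. It was left out, so DKO has 2 arrays and 11 arrays were analysed. Ets1, the gene deleted in Ets1KO and DKO, goes against the DKO label at its brightest probe set (1452163_at). That probe set read 10.26, 9.84 and 10.06 in WT, 8.31, 8.76 and 9.17 in Ets1KO, 9.50, 9.55 and 9.88 in Ets2KO, and 10.02 and 10.29 in the arrays labelled DKO. Ets2 (1416268_at) read 9.72, 10.01 and 10.70 in WT, 9.63, 9.35 and 10.13 in Ets2KO, and 11.02 and 9.63 in the arrays labelled DKO. It was not called lower in Ets2KO than in WT (-0.42, limma adjusted p = 0.554, groups overlapping), nor was the other Ets2 probe set, 1447685_x_at (-0.15, adjusted p = 0.801), and in DKO they were 0.98 and 0.59 above WT without a call. Loss of the Ets2 transcript is therefore not shown by these probe sets. In Ets1KO the 4 Ets1 probe sets differed from WT by -0.55 to -1.36 without overlap of the groups. None of them was called (limma adjusted p from 0.193 to 0.543). Ets1KO, Ets2KO and DKO are therefore group labels below. The 4 Ets1 probe sets differ from WT in DKO by -1.20, 0.18, 0.78 and 0.90 relative to array medians, the first (1422027_a_at) lower and the last 2 higher by limma. Their position against the targeted exons was not analysed here, so the Ets1 and Ets2 probe sets may or may not report the deletions. Every statement on DKO below is on the arrays labelled DKO. The cell type could be checked with only 3 of 12 endothelial markers (Kdr, Flt1 and Egfl7), whose mean level relative to array medians ran from -1.71 to -0.77. The other 9 markers, Pecam1, Cdh5 and Vwf among them, were not analysed here. The mean of the 3 lies below the array median in every array analysed, so endothelial identity is not shown by them. Means of the other lists ran from -0.20 to 2.94 for smooth muscle (3 of 6 markers), from 0.13 to 1.86 for fibroblasts (6 of 6), and from -2.56 to -1.85 for leukocytes (3 of 6). The pericyte mean (3 of 4) was 2.44, 1.05 and 2.83 in Ets2KO, above WT (-0.11, 0.91 and 0.04), Ets1KO (0.21 to 1.58) and DKO (0.95 and 0.33) except that 1 Ets1KO array exceeds 1 Ets2KO array. The adipocyte mean (3 of 4) was 0.59, 3.56 and 4.46 in Ets2KO, -2.08, -2.15 and 2.94 in WT, -4.11 to -2.93 in Ets1KO, and 0.37 and -3.24 in DKO. The part of these cell type differences in the results below was not tested. Xist and Eif2s3y place all Ets2KO arrays and WT replicate 1 with male cells and the 7 other arrays with female cells. In these bulk samples fewer cells of a type and less RNA per cell cannot be told apart.

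RefSeq promoters (GRCm38.p6, 250 bases before to 50 after a transcript start) were matched for 3 of the 4 members, Erf, Etv3 and Etv5. They are shown because these genes encode ETS factors and were read in cells meant to lack ETS factors. Capitals mark GGAA on either strand, so that a match on the opposite strand reads TTCC, and each is written in the gene's own 5′ to 3′ direction.

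Erf, chr7:25250709-25251008, minus strand: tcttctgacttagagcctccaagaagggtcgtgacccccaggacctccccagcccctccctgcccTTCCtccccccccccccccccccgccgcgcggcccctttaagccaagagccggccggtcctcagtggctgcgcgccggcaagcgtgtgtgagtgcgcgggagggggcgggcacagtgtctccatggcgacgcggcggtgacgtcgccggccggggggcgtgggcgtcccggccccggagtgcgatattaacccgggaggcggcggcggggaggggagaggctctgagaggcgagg

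Etv3, chr3:87525328-87525627, plus strand: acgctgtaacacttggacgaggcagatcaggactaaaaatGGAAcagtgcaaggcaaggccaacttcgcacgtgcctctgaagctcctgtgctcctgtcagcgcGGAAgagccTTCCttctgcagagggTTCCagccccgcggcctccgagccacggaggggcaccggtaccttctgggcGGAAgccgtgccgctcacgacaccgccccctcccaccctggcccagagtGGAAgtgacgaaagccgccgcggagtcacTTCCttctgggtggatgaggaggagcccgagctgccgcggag

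Etv5, upstream start, chr16:22439521-22439820, minus strand: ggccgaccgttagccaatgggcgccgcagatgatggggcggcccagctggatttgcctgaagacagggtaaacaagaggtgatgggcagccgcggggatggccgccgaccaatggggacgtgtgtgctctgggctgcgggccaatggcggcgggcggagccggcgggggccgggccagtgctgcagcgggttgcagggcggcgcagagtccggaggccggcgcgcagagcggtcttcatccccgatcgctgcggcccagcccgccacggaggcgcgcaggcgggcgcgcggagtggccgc

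Etv5, downstream start, chr16:22438319-22438618, minus strand: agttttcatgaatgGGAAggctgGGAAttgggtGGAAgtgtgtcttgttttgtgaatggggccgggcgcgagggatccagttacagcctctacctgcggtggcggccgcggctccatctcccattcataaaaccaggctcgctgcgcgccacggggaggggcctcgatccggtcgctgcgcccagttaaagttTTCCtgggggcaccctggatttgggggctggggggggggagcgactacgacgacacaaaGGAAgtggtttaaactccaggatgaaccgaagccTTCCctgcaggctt

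The Etv3 promoter holds 7 GGAA matches, and 2 of them lie in the longer word CGGAAG, searched on both strands. The Erf promoter holds 1 GGAA and no CGGAAG. The upstream Etv5 promoter holds 0 GGAA and the downstream one 6, neither with a CGGAAG. Over 32851 mouse promoters of this length in the same table, 96.0% hold a GGAA and 16.9% a CGGAAG, at least 7 GGAA occur in 8.02% and at least 2 CGGAAG in 4.15%. The AP-1 word TGANTCA, which is its own reverse complement, is in 7.81% of them and in none of these 4 windows. These are letters in a window, not sites, and no binding was measured.

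Of the 8 member probe sets, 5 fell and 1 rose in the arrays labelled DKO against WT relative to array medians, 7 fell and 0 rose on deposited values, and 0 were called in Ets1KO or in Ets2KO against WT. Erf and all 3 Etv5 probe sets fell on both scales, Etv4 fell on both, and Etv3 depended on the scale. Over all probe sets of DKO against WT, 14.4% were called lower and 21.6% higher relative to array medians, and 46.0% lower and 2.87% higher as deposited. The groups did not overlap for 6 of 8 member probe sets and 56.4% of all probe sets relative to array medians. Against Ets1KO, 4 member probe sets fell and 1 rose relative to array medians (13.7% and 21.8% of all probe sets), and 7 fell as deposited (46.0%, with 1.76% higher). Against Ets2KO, 4 fell and 1 rose (14.9% and 20.2%), and 6 fell as deposited (45.7%, with 3.12% higher). In Ets1KO against WT the share called is 0.00487% and in Ets2KO against WT 0.633%. The median difference of DKO from WT was -1.47 over the 8 member probe sets and 0.16 over all probe sets relative to array medians, and -2.27 and -0.63 as deposited. Etv3 and Etv5 enter these counts and medians 3 times each, so the 8 probe sets stand for 4 genes. All of these comparisons share arrays, WT or DKO, so their values are given side by side and are not independent of each other.

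**Figure D1:**
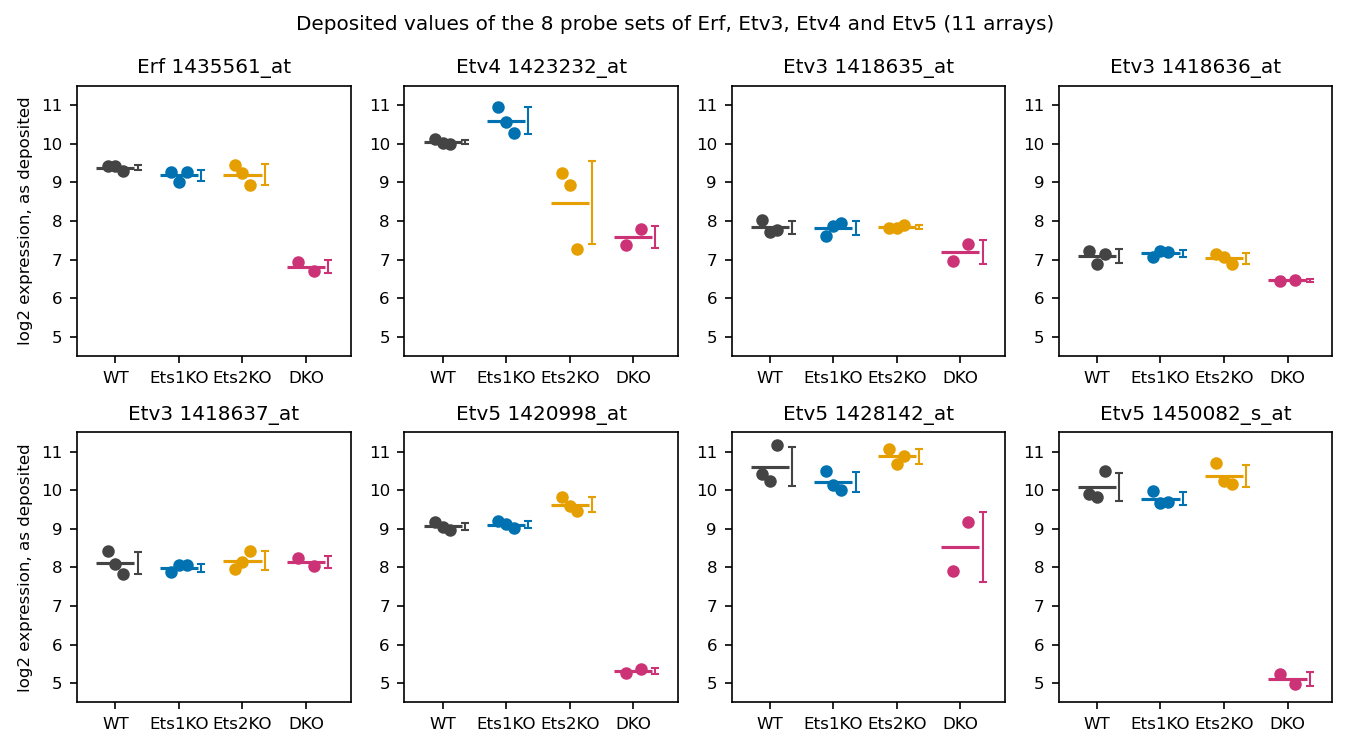
Each panel plots the deposited log2 expression (y axis) of 1 member probe set in the 4 groups (x axis). Points are arrays (3 each in WT, Ets1KO and Ets2KO and 2 in DKO), horizontal lines group means and vertical bars 1 SD. DKO lies far below the other groups for Erf and for the Etv5 probe sets other than 1428142_at. At 1428142_at DKO reads 7.90 and 9.17, below the other groups as deposited, but it overlaps Ets1KO relative to array medians. The deposited values drawn include the lower medians of the DKO arrays. Etv4 is also low in Ets2KO, and Etv3 1418637_at is level across groups.

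Erf, an ERK-regulated repressor, was nearly level in the 3 groups other than DKO. Probe set 1435561_at read 9.42, 9.43 and 9.31 in WT, 9.27, 9.02 and 9.27 in Ets1KO, 9.44, 9.25 and 8.93 in Ets2KO, and 6.93 and 6.71 in DKO. Both DKO arrays lie below all 9 others, and the other groups overlap except Ets1KO and WT. In order, the levels relative to array medians are 0.29 ± 0.09 in WT, 0.14 ± 0.27 in Ets2KO, 0.05 ± 0.14 in Ets1KO (SD, n = 3 each) and -1.48 ± 0.15 in DKO (n = 2). The first 3 do not differ beyond the test, with differences from WT of -0.25 in Ets1KO (adjusted p = 0.664) and -0.16 in Ets2KO (adjusted p = 0.614) by limma. DKO lay below WT by a log2 difference of -1.77 (SE 0.18, limma adjusted p = 2.22e-04), 3.41-fold lower, and as deposited by -2.57 (adjusted p = 9.26e-06). Against Ets1KO the difference was -1.52 (SE 0.18, limma adjusted p = 4.20e-04) and against Ets2KO -1.61 (SE 0.18, limma adjusted p = 3.12e-04). Erf stayed called in all 11 fits that left out 1 array in each of these 3 comparisons, and its difference from WT ran from -1.88 to -1.66. It has 1 probe set, so no second one can be set beside it.

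Etv3, the other repressor, gave no change that both scales share. Probe set 1418637_at, its brightest, read 8.42, 8.09 and 7.84 in WT, 7.88, 8.05 and 8.05 in Ets1KO, 7.95, 8.13 and 8.44 in Ets2KO, and 8.25 and 8.03 in DKO. The 4 groups overlap as deposited. Relative to array medians it rose by 0.81 in DKO against WT (SE 0.21, limma adjusted p = 0.0164), where the deposited difference was 0.02 (adjusted p = 0.945). The remaining Etv3 probe sets went the other way round. Probe set 1418635_at read 8.02, 7.71 and 7.78 in WT and 6.97 and 7.41 in DKO, and 1418636_at read 7.22, 6.88 and 7.15 in WT and 6.44 and 6.48 in DKO. As deposited these fell by 0.64 (limma adjusted p = 0.0149) and by 0.62 (adjusted p = 0.00806), without overlap between the groups. Relative to array medians they differed by 0.15 (adjusted p = 0.554) and 0.18 (adjusted p = 0.414), with overlap. The same split held against Ets1KO and Ets2KO: 1418637_at was 0.99 and 0.74 higher relative to array medians, and 0.14 and -0.035 different as deposited. The call of 1418637_at against WT ends without DKO replicate 1 (0.71, adjusted p = 0.0872), and that against Ets2KO without DKO replicate 1 or 2 or Ets2KO replicate 1 or 2 (adjusted p from 0.0566 to 0.124). In Ets1KO and Ets2KO the 3 Etv3 probe sets differed from WT by -0.17 to 0.08, with limma adjusted p from 0.826 to 0.972.

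Etv4, a PEA3 activator, was the member that also read low in Ets2KO. Probe set 1423232_at read 10.12, 10.03 and 10.00 in WT, 10.96, 10.57 and 10.28 in Ets1KO, 9.23, 8.94 and 7.26 in Ets2KO, and 7.38 and 7.79 in DKO. No Ets1KO array lies below a WT array and no Ets2KO or DKO array reaches one, while Ets2KO replicate 3 lies below both DKO arrays. Relative to array medians the order is Ets1KO (1.46 ± 0.35), WT (0.96 ± 0.10), Ets2KO (-0.59 ± 1.07) and DKO (-0.71 ± 0.29). Etv4 fell in DKO against WT by 1.67 (SE 0.50, limma adjusted p = 0.0289), 3.18-fold, and against Ets1KO by 2.18 (SE 0.50, adjusted p = 0.00982). As deposited the differences were -2.46 and -3.02. Against Ets2KO the difference of DKO was -0.12 (95% interval -1.25 to 1.01, limma adjusted p = 0.869), and -0.90 as deposited (adjusted p = 0.164). Ets2KO differed from WT by -1.55 (SE 0.45, limma adjusted p = 0.113) and Ets1KO from WT by 0.51 (SE 0.45, adjusted p = 0.769), so neither passed, although in both the groups do not overlap. Over all probe sets the groups do not overlap for 18.7% in Ets1KO against WT and 28.3% in Ets2KO against WT, and for 2 of 8 member probe sets in each.

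Ets1KO and Ets2KO compared directly placed Etv4 2.05 higher in Ets1KO (SE 0.45, limma adjusted p = 0.0495), the 1 member probe set called of 8, against 2.54% of all probe sets. The 2 groups do not overlap for 4 of 8 member probe sets and for 35.5% of all probe sets. That call ends in 10 of the 11 fits that leave out an array, with adjusted p from 0.0522 to 0.159, and is kept without Ets2KO replicate 3, where the difference is 1.44. With the Xist-based sex state in the model the adjusted p is 0.845, since all Ets1KO arrays are female-like and all Ets2KO arrays male-like. The fall against WT is likewise thin: its call ends without DKO replicate 1 (-1.46, adjusted p = 0.131), without DKO replicate 2 (-1.87, adjusted p = 0.0747) or without WT replicate 1, 2 or 3 (adjusted p from 0.0504 to 0.0698). Against Ets1KO it ends without DKO replicate 1 (-1.97, adjusted p = 0.0604). Without Ets2KO replicate 3 the difference of DKO from Ets2KO is -0.74 (limma adjusted p = 0.0493) and that of Ets2KO from WT -0.93. That array also has the highest mean of 3 adipocyte markers (4.46 relative to its median, 0.59 and 3.56 in the other Ets2KO arrays, -2.15 to 2.94 in WT). Its mean over 17 ERK output genes is 0.36, where the other Ets2KO arrays have 1.42 and 1.45 and WT 1.59 to 1.87. Their part in the Etv4 level was not tested.

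Etv5, the second PEA3 activator measured here, gave, at 2 of its probe sets, the largest differences from WT among the 8 member probe sets in DKO. Its 3 probe sets differ in how far they fell in DKO. Probe set 1450082_s_at read 9.91, 9.83 and 10.51 in WT, 9.98, 9.66 and 9.70 in Ets1KO, 10.70, 10.25 and 10.16 in Ets2KO, and 5.23 and 4.98 in DKO. Probe set 1420998_at read 9.17, 9.04 and 8.97 in WT, 9.20, 9.12 and 9.01 in Ets1KO, 9.83, 9.60 and 9.47 in Ets2KO, and 5.27 and 5.38 in DKO. In both, the DKO arrays lie far below every other array. Probe set 1428142_at, the brightest, read 10.41, 10.23 and 11.18 in WT, 10.50, 10.12 and 10.00 in Ets1KO, 11.07, 10.68 and 10.88 in Ets2KO, and 7.90 and 9.17 in DKO. Here the DKO arrays lie apart from each other, replicate 1 being the lower.

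Relative to array medians Etv5 fell in DKO against WT, with a difference of -4.18 at 1450082_s_at (SE 0.24, limma adjusted p = 1.79e-05), 18.2-fold, and of -2.94 at 1420998_at (SE 0.16, adjusted p = 1.40e-05), 7.69-fold. At 1428142_at it was -1.28 (SE 0.39, limma adjusted p = 0.0298), 2.42-fold. Deposited values gave -4.98, -3.74 and -2.07. In order of signed difference, 1450082_s_at ranks 21 from the lowest among 20523 probe sets, 1420998_at ranks 165, Erf 802, Etv4 925 and 1428142_at 1580. Against Ets1KO the 3 Etv5 differences were -3.83, -2.94 and -0.83, the last not called (limma adjusted p = 0.125) though called as deposited (-1.67, adjusted p = 0.00632). Against Ets2KO they were -4.49, -3.54 and -1.57, all called (limma adjusted p = 1.35e-05, 8.85e-06 and 0.0129). Both of the steeper probe sets stayed called in all 11 fits that left out an array in each comparison. The call of 1428142_at against WT ends without DKO replicate 1 (-0.64), WT replicate 1 (-1.35, limma adjusted p = 0.0526) or WT replicate 3 (adjusted p = 0.0707). That call also ends with WT and DKO alone in the fit (adjusted p = 0.120) and with array weights (-1.06, adjusted p = 0.0629). The sex state in the model gives the same values as leaving out WT replicate 1 (-1.35, limma adjusted p = 0.0526). WT replicate 1 is the only male-like array outside Ets2KO, so these 2 fits are not separate for this comparison. Against Ets2KO its call ends without DKO replicate 1 (-0.93, adjusted p = 0.0938), with these 2 groups alone (adjusted p = 0.0509) and with the sex state in the model (-1.80, adjusted p = 0.157), which differs wholly between them, and without DKO replicate 2 the difference from Ets1KO is called (-1.47, adjusted p = 0.0226).

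How far the 3 Etv5 probe sets differ was set beside the 1212 genes that have 3 single-gene probe sets. The DKO minus WT differences of Etv5 span 2.91, where the median gene spans 1.17 and 6.02% of genes span as much. For Etv3 the span is 0.66. In Ets2KO minus WT, Etv5 spans 0.30 and the median gene 0.32, and in Ets1KO minus WT 0.45 and 0.23. All 3 probe sets were called lower in DKO against WT in 15 of the 1212 genes (1.24%) relative to array medians, Etv5 among them, and in 195 (16.1%) as deposited. Probe sets 1420998_at and 1450082_s_at were designed from the same transcript record and 1428142_at from another, and the suffix s marks probes that can match more than 1 transcript.

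In Ets2KO the Etv5 probe sets read at or above WT while Etv4 read below it. They were 0.59 (SE 0.14), 0.29 (SE 0.35) and 0.31 (SE 0.22) above WT at 1420998_at, 1428142_at and 1450082_s_at, with limma adjusted p of 0.0784, 0.672 and 0.453, so none was called. At 1420998_at every Ets2KO array exceeds every WT array. For the other 2 probe sets the groups overlap, WT replicate 3 being high in both, and that array has an adipocyte marker mean of 2.94 where the other WT arrays have -2.08 and -2.15. What part this has in its Etv5 level was not tested. Ets1KO lay below Ets2KO by 0.59, 0.74 and 0.66 at the 3 probe sets without overlap (limma adjusted p = 0.0571, 0.245 and 0.130), and against WT Ets1KO gave -0.0018, -0.45 and -0.35 (adjusted p from 0.652 to 0.998).

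**Figure D2:**
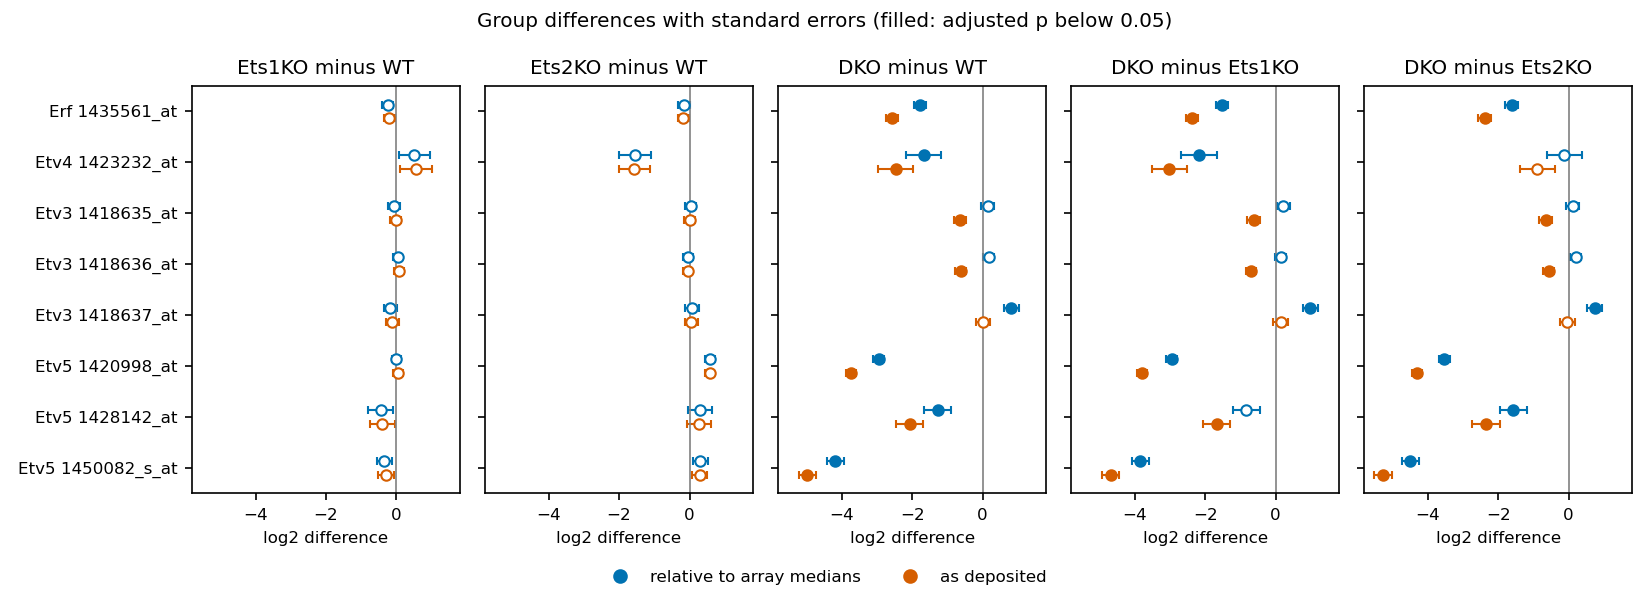
Log2 differences (x axis) with limma standard errors for the 8 member probe sets (y axis) in 5 comparisons, relative to array medians (blue) and as deposited (orange). Filled points have an adjusted p below 0.05. The contrasts with DKO hold all filled points, from -4.18 at Etv5 1450082_s_at to 0.81 at Etv3 1418637_at against WT relative to array medians.

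The difference of DKO from Ets1KO minus that of Ets2KO from WT was tested as an interaction. Only the first difference compares Ets2fl/fl cells with and without the Cre virus, since WT has no floxed allele. Relative to array medians 3 of 8 member probe sets were called, all negative, where 9.36% of all probe sets were called negative, and 5 of 8 as deposited, where 34.0% were. Erf gave -1.37 (SE 0.24, limma adjusted p = 0.00575), Etv5 1420998_at gave -3.53 (SE 0.21, adjusted p = 9.05e-05) and Etv5 1450082_s_at gave -4.14 (SE 0.33, adjusted p = 1.96e-04). All 3 were far below WT in DKO and not called in Ets1KO or Ets2KO. The interaction of 1420998_at includes its 0.59 above WT in Ets2KO, which is called with array weights (0.61, adjusted p = 0.0141) and with the third DKO column kept (adjusted p = 0.0365). Etv4 gave -0.63 (95% interval -2.15 to 0.89, limma adjusted p = 0.541), as its level was already low in Ets2KO. Without Ets2KO replicate 3 the Etv4 interaction is -1.24 (adjusted p = 0.0300). Etv5 1428142_at gave -1.12 (adjusted p = 0.158), and -1.94 as deposited (adjusted p = 0.0180). Etv3 1418637_at gave 0.91 (adjusted p = 0.0532) relative to array medians and 0.09 as deposited.

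Of 22 other ETS genes, Ets1 and Ets2 included, 10 had a single-gene probe set here, and each is described by its brightest one. In DKO against WT, relative to array medians, 1 fell and 1 rose of these 10, with a median of -0.06, where 31.7% of 11015 genes were called and the median was 0.18. Elk1, a ternary complex factor at serum response elements, differed by -0.64 (SE 0.14, limma adjusted p = 0.00665) and by -1.43 as deposited. Ets1 is the one that rose, by 0.90 (adjusted p = 0.0235), and by deposited values it differed by 0.10 (adjusted p = 0.761). The 8 not called are Ets2 (0.98, adjusted p = 0.0935), Elk3, Elk4, Gabpa, Etv6, Elf1, Elf2 and Elf4, the last 7 with differences from -0.41 to 0.34. As deposited 6 of the 10 fell and 0 rose, where 44.0% of genes fell. No gene of the list was called in Ets1KO or Ets2KO against WT. Outside the deleted pair, the differences there run from -0.29 (Gabpa, a housekeeping ETS factor) to 0.23 (Elk3). Fli1, Erg and Etv1, the remaining PEA3 gene, were not analysed here.

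**Figure D3:**
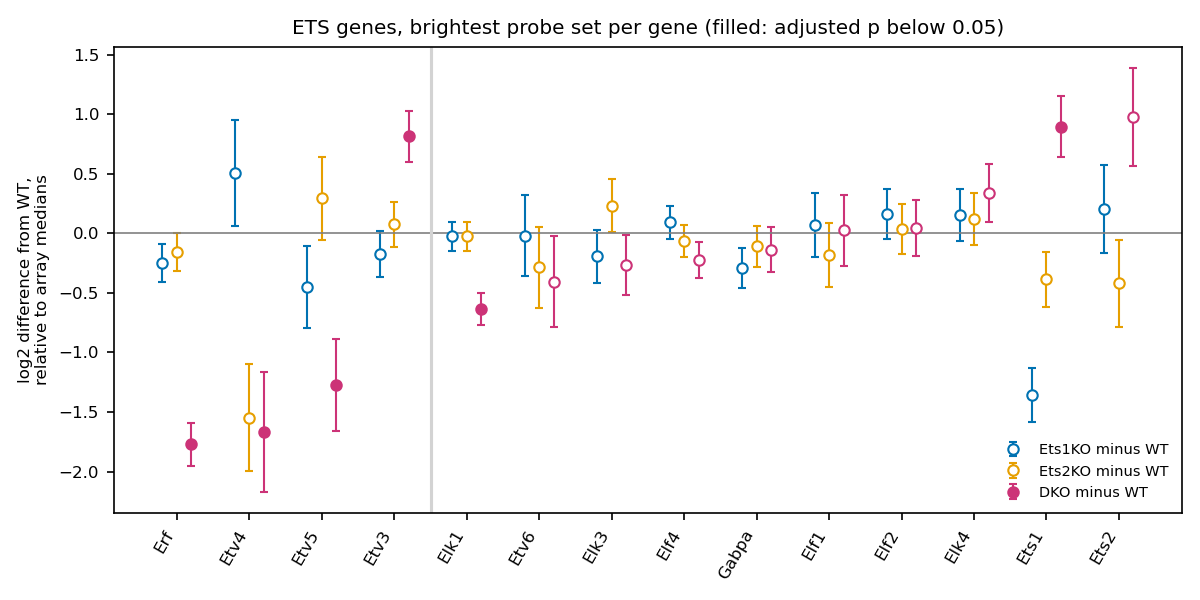
Log2 differences from WT relative to array medians (y axis) with limma standard errors for the 4 members (left of the vertical line) and 10 other ETS genes (x axis), at the brightest probe set per gene, in Ets1KO, Ets2KO and DKO. Filled points have an adjusted p below 0.05, and the steeper falls of Etv5 at its other probe sets are not drawn.

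Genes that report or feed back on ERK activity were read next, since Etv4 and Etv5 are known ERK-induced transcripts and Erf an ERK substrate. Of 20 ERK output genes 17 were measured, and in DKO against WT 1 rose and 0 fell relative to array medians (median 0.09), while 0 rose and 3 fell as deposited. Over all genes 20.7% rose relative to array medians, and 2.41% rose and 44.0% fell as deposited. Relative to array medians 14.4% of all probe sets fell, a share not counted per gene. No count of the list stands above its background. Spred2, an inhibitor of Ras to ERK signalling, rose by 1.07 (SE 0.31, limma adjusted p = 0.0255) and differed by 0.28 as deposited (adjusted p = 0.478). Spry4, a feedback inhibitor in the same pathway, was lower in both DKO arrays than in any WT array, with a difference of -0.83 (limma adjusted p = 0.117) and of -1.62 as deposited (adjusted p = 0.00627). Spry2, its relative, differed by 0.63 (adjusted p = 0.141) and Fos by 1.34 (adjusted p = 0.243). In Ets2KO against WT 0 of 17 were called and 14 lay below 0, with a median of -0.49, where 49.7% of genes lay below 0. The lowest p there belonged to Ier3 (-3.12, limma adjusted p = 0.0682) and to the phosphatase Dusp1 (-2.77, adjusted p = 0.0814). In Ets1KO against WT 15 of 17 lay below 0, where 54.9% of genes did, and none was called, with Dusp1 at -1.69 (adjusted p = 0.516) and Spry4 at -0.76 (adjusted p = 0.553). In DKO against Ets2KO, where Etv5 fell and Etv4 did not pass, 5 of the 17 rose and 0 fell relative to array medians. On that scale 20.6% of all genes rose and 14.9% of all probe sets fell. Among the 5 were Ier3 (3.54, limma adjusted p = 0.00740), Dusp1 (3.30, adjusted p = 0.00898), Spred2 (1.34) and Spry2 (1.06). As deposited 2 of the 17 rose and 3 fell, where 3.12% of all probe sets rose and 45.7% fell. The 17 are read at 1 probe set per gene, so shares over all probe sets are not in the same unit. On that scale Spred2 (0.57, adjusted p = 0.155) and Spry2 (0.29, adjusted p = 0.458) were not called. The DKO arrays differ on Dusp1, at 3.42 and 0.52 relative to their medians, and on Ier3, at 3.21 and 5.11. Against WT neither gene was called in DKO, with 0.53 for Dusp1 (limma adjusted p = 0.610) and 0.42 for Ier3 (adjusted p = 0.700). Sex state differs wholly between DKO and Ets2KO.

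Upstream of ERK, 23 of 32 receptor to ERK components were measured. Relative to array medians 6 rose and 0 fell in DKO against WT, with a median of 0.45. On that scale 20.7% of genes rose and 14.4% of all probe sets fell, the latter not counted per gene. As deposited 1 rose and 8 fell, where 2.41% of genes rose and 44.0% fell. These counts lie near or below the shares over all, so they set the list apart on neither scale. The guanine nucleotide exchange factor Sos2 rose on both scales, from 8.07, 7.86 and 8.05 in WT to 9.04 and 9.30 in DKO, by 1.97 relative to array medians (SE 0.17, limma adjusted p = 1.18e-04) and by 1.18 as deposited. The kinases Braf (1.08, adjusted p = 8.81e-04) and Map2k1 (1.18, adjusted p = 0.00632) and the docking protein Gab1 (1.24, adjusted p = 0.00770) rose relative to array medians and were not called as deposited, with 0.29, 0.39 and 0.45. In Ets1KO and in Ets2KO against WT 0 of 23 were called. The smallest p were those of the growth factor receptor Igf1r (0.64, limma adjusted p = 0.0840) and the adaptor Shc1 (0.51, adjusted p = 0.213) in Ets2KO. In Ets1KO they were those of Araf (0.39, adjusted p = 0.510) and Egfr (0.32, adjusted p = 0.583).

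For each member the 3 genes with the closest profile were found over the 11 arrays, as the smallest root-mean-square difference in log2 between brightest probe sets relative to array medians, each centred on its own mean, among 6450 to 6451 genes brighter than the median gene. Nploc4 (0.11), Entr1 (0.11) and Zdhhc5 (0.13) lay closest to Erf, whose own root-mean-square deviation is 0.65. Their DKO minus WT differences are -1.68, -1.81 and -1.75. The DKO arrays entered the choice, so a shared step follows from it and is not a separate result. The same holds for the neighbours of the other members. Slc25a46 (0.14), Tut7 (0.14) and Polr1d (0.15) lay closest to Etv3, whose own deviation is 0.39. Hmgb3 (0.38), Rin1 (0.52) and Lmnb1 (0.53) lay closest to Etv4, whose own deviation is 1.06. The distances are not scaled to a member's own deviation, so they do not rank the members by closeness. Hmgb3, a chromatin protein, differed from WT by -1.52 in Ets2KO and -1.48 in DKO, next to -1.55 and -1.67 for Etv4, and read lowest in Ets2KO replicate 3 as Etv4 did. Lmnb1, a nuclear lamina protein, gave -0.75 and -0.86. Dalrd3 (0.27), Pdia4 (0.28) and Eml3 (0.29) lay closest to Etv5 1428142_at, whose own deviation is 0.66.

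**Figure D4:**
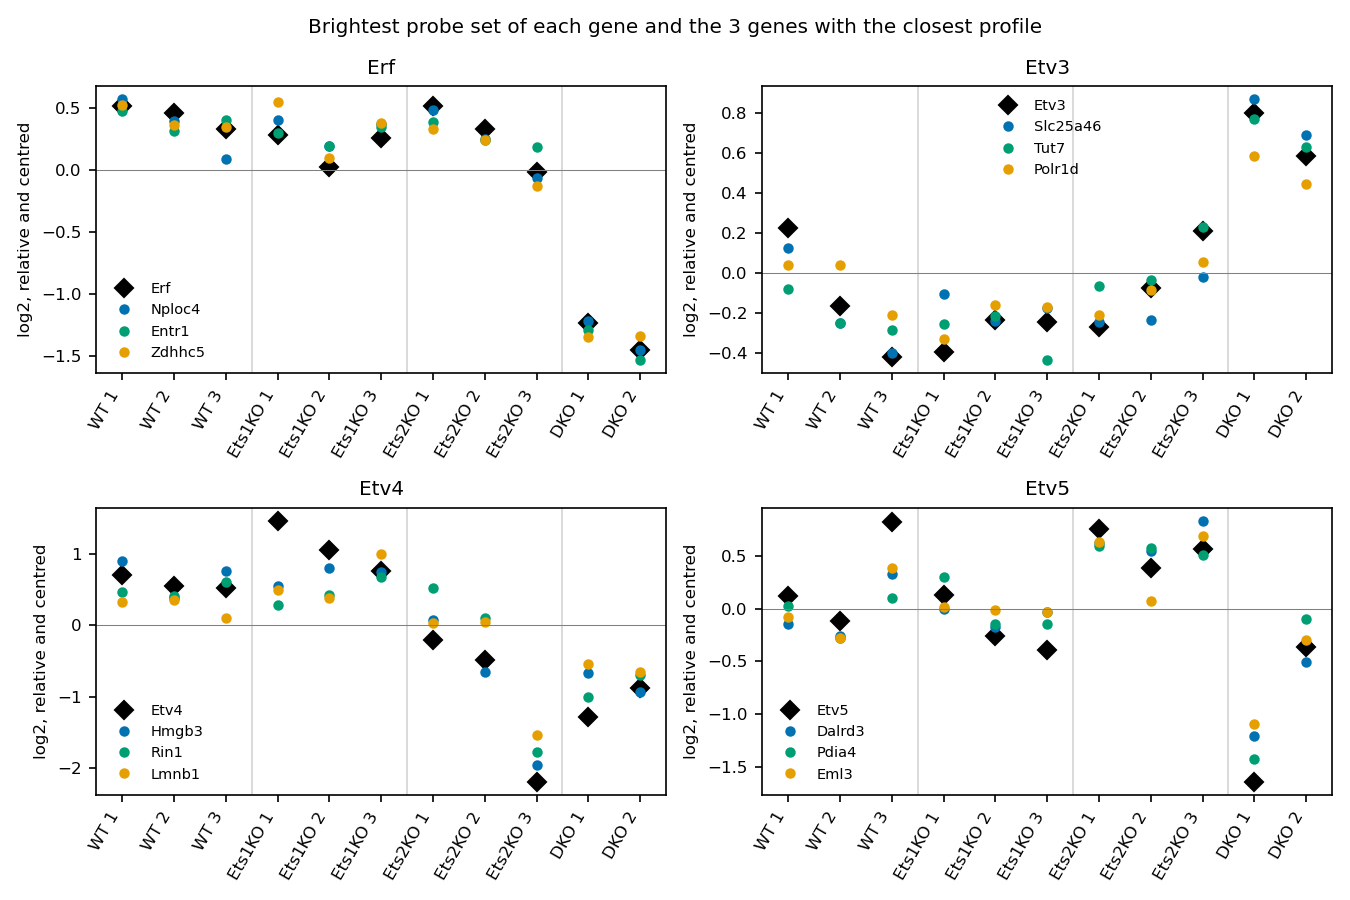
Log2 values relative to array medians and centred on each gene's mean (y axis) in the 11 arrays (x axis) for each member (black diamonds) and its 3 closest genes (coloured points), at the brightest probe set per gene. Erf and its neighbours drop in both DKO arrays, while Etv4 and its neighbours are lowest in Ets2KO replicate 3. The neighbours were chosen on these same values, so the likeness follows from the choice.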

How the data were processed

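Affymetrix arrays of 12 samples in 4 groups were used as deposited. Per the submitters' processing notes the authors made the log2 values with RMA, with no version or rule for the 20523 probe sets kept stated in the sources used here. Groups and replicate numbers follow the titles, although the short descriptions of Ets1KO and Ets2KO say wild type. The titles name biological replicates but no source states separate animals, and the spread behind each p-value may then be technical. Probe sets were named with the platform annotation (18824 with 1 symbol, 549 with several, 1150 unnamed).

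All probe sets entered 1 limma model (version 3.58.1, R version 4.3.3) with a mean for each of 4 groups, by lmFit with eBayes moderation (11 arrays, 7 residual and 2.22 prior degrees of freedom), with no filter and Benjamini-Hochberg adjustment within each comparison. The number of arrays limits the precision. The fit was tested on simulated data with 100 probe sets changed by a log2 of 1 and 100 by 3. For DKO against WT, over 20523 probe sets, it recovered 28% and 86% of them, with 3 false calls.

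All member probe sets are named, as are Ets1 and Ets2. So are, per gene list, the 4 genes of lowest p in DKO and the 2 in Ets1KO and in Ets2KO against WT, and the 3 closest genes of each member. Members and lists were chosen with earlier results of these data known. Plots used matplotlib 3.10.9 under Python 3.11.15. Alternatives were centring, normalization, replicate block, groups in the fit, the third DKO column, array weights, brightness, 1 probe set per gene, sex-like state and leaving out each array.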

Additional observations from a re-analysis of the deposited data

Results flagged for a closer look

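For 3 probe sets the difference of DKO from Ets1KO departed from that of Ets2KO from WT, by the interaction term of limma. WT has no floxed allele, so the second difference holds that allele as well as the Cre virus. Sex state also differs in part between Ets2KO and WT. A separate normalisation of the DKO arrays, if there was one, enters the term too. Erf 1435561_at gave -1.37 (adjusted p = 0.00575), Etv5 1420998_at -3.53 (adjusted p = 9.05e-05) and Etv5 1450082_s_at -4.14 (adjusted p = 1.96e-04), relative to array medians. As deposited they were -2.19, -4.36 and -4.96. Each stayed called in all 11 fits that left out an array. All 3 rest on the same 2 arrays labelled DKO, in which the brightest Ets1 probe set reads as high as in WT on deposited values.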

How the results depend on the processing

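Counts are member probe sets called of 8. In DKO against WT the count is 6, 3 to 6 without 1 array (3 without DKO replicate 1), and 3 among probe sets brighter than the median. In DKO against Ets1KO it is 5, 4 to 6 without 1 array, 2 among bright probe sets and 3 with 1 probe set per gene. In DKO against Ets2KO it is 5, 3 to 6 without 1 array (3 without DKO replicate 1), 3 with the 2 groups alone, with 1 probe set per gene or with sex-like state, and 2 among bright probe sets. The brightness filter and the choice of 1 probe set leave fewer member probe sets in the test. In Ets1KO against WT the count is 0 in every fit by limma, and 0 of 8 have an unadjusted p below 0.05. In Ets2KO against WT it is 0 by limma (2 at unadjusted p below 0.05), 0 in each fit without 1 array, 1 with the third DKO column kept and 2 with array weights (Etv4 and Etv5 1420998_at). In Ets1KO against Ets2KO it is 1, 0 to 1 without 1 array, 0 with the replicate block, with the 2 groups alone, among bright probe sets or with sex-like state, 2 with the third DKO column and 4 with array weights. For the interaction it is 3, 3 to 5 without 1 array (5 without Ets2KO replicate 3), 5 as deposited, and 1 among bright probe sets or with 1 probe set per gene.

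Sign changes in which the value was called on at least 1 of the scales were those of Etv3 on deposited values: 1418635_at to -0.64, -0.62 and -0.65 against WT, Ets1KO and Ets2KO, 1418636_at to -0.62, -0.70 and -0.57 in the same order and -0.64 in the interaction, and 1418637_at, not called as deposited, to -0.035 against Ets2KO. The replicate numbers do not pair the arrays (r of same-numbered deviations from -0.31 to 0.10 in 15 pairs). With the replicate block the count in DKO against WT is 5, as Etv5 1428142_at is not called (-1.22, adjusted p = 0.0738), and Etv3 1418637_at lost its call against Ets2KO (0.74, adjusted p = 0.0600). Signal over background was not analysed here.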
